A study of Homo sapiens with 3 samples.

Results

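Transcripts of the nuclear receptor superfamily were compared across 3 arrays from T47D cells, a human breast cancer line known for its estrogen and progesterone receptors. The list held 45 receptor genes, named by their membership of the superfamily, and 38 of them had at least 1 probe set that the platform annotation gives to that gene alone. These 38 genes, of 19775 measured in all, were read by 125 of the 54675 probe sets. Of the other 7, NR1D1 was covered by 3 probe sets that it shares with THRA, and NR1H2, NR1H4, NR1I2, HNF4A, NR2F2 and NR0B1 were not matched to a probe set. They are not analysed here.

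The cells were first kept for 4 h in culture medium with 10% charcoal-stripped serum, which is depleted of steroids. They were then treated for 3 h with ethanol at 0.1% (vehicle), with estradiol at 1 µM, or with ERα17p at 1 µM, a synthetic peptide copied from the hinge side of estrogen receptor α where calmodulin binds. An ethanol share is given for the vehicle cells alone, so whether the treated cells had the same solvent was not tested. Each group had 1 Affymetrix HG-U133 Plus 2 array of total RNA, so no difference has an error between cultures and no test was possible. The comparisons ask which receptor transcripts stood apart within hours of each agent, and which of them separated the hormone from the peptide at equal molarity.

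Nuclear receptors are transcription factors that share a zinc-finger DNA-binding domain and, in most members, a pocket for a small lipid-soluble ligand. Some bind DNA as pairs of themselves, as the steroid receptors do, many pair with a retinoid X receptor, and several orphan receptors act alone. In luminal breast cancer cells estrogen receptor α is the member that drives growth, and the transcripts of other receptors are among the genes that hormones regulate.

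Values are RMA values taken as log2, set by the submitters relative to a baseline per probe set that is not given. A value of 0 is therefore that probe set's baseline, and values of different genes cannot be ranked as levels. Whether T47D cells expressed a given receptor, or the markers of their cell type, could not be read from them. The value of a gene is the mean over its probe sets. An SD below is over those n probe sets and covers their disagreement, not the spread between cultures. Fold sizes hold only for a log base of 2. In bulk RNA a difference in every cell and one in a share of the cells cannot be told apart.

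The vehicle array had a wider spread of values than both treated arrays, with an SD over all probe sets of 0.434 against 0.158 for estradiol and 0.166 for ERα17p. Taken over gene means, the SD of all genes was 0.371 on vehicle, 0.130 on estradiol and 0.139 on ERα17p. For the means of the 38 receptor genes it was 0.309, 0.148 and 0.270 in that order. The 3′ less the 5′ control probe set of GAPDH was 0.39 with vehicle, −0.10 with estradiol and 0.01 with ERα17p, and for ACTB these differences were 0.52, −0.29 and −0.17. The part of these array properties in the differences from vehicle was not tested. In 21 of the 38 receptor genes (55.3%) the vehicle value lay farther from both treated values than these lay from each other, as in 57.1% of all genes. The comparison of ERα17p with estradiol does not use the vehicle array and is given first.

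Between the 2 treated arrays, NR2F1 was higher with the peptide and NR5A2 was higher with the hormone, and the other 36 receptor genes lay within 1.5-fold. NR2F1, which encodes the orphan receptor COUP-TFI, was 2.99-fold higher with ERα17p than with estradiol. NR5A2, which encodes LRH-1, a receptor that binds DNA as a monomer and controls genes of steroid and bile acid metabolism, was 1.89-fold lower with ERα17p. Of the 38 receptor genes 1 was thus higher and 1 lower by 1.5-fold or more, while of all 19775 genes 0.521% were higher and 0.607% lower by that much. By 2-fold or more, 1 receptor gene (NR2F1) was higher and 0 were lower, while 0.0607% of all genes were higher and 0.086% lower. With so few receptor genes past the threshold, no share of the superfamily can be set apart from that background.

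The sequences around the starts of the 4 receptor genes that the results turn on are shown first, as the stretch of each gene that was searched for receptor and clock factor motifs. Each is 1 RefSeq window of the build GRCh38.p14, from 250 bases before to 50 after an annotated start, printed 5′ to 3′ along the gene, and it was chosen after the motif matches were seen. Capitals mark the hexamer AGGTCA, the core to which most nuclear receptors bind, in the first 3 where it occurs, and the E-box CACGTG, to which the clock factors CLOCK and BMAL1 bind, in the last.
NR2F1, chr5:93582972-93583271 (+ strand): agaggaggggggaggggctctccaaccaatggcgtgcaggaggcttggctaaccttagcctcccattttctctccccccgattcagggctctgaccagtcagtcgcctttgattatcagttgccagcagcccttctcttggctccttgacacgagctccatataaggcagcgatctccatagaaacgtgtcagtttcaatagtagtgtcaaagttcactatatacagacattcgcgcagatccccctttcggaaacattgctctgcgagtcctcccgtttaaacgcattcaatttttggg
NR5A2, chr1:200027460-200027759 (+ strand): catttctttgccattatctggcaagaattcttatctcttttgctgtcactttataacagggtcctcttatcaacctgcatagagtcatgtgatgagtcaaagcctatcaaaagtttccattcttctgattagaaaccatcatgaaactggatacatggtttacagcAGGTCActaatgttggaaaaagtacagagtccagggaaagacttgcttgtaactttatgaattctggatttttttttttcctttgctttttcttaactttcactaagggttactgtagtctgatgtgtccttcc
NR1H3, chr11:47248050-47248349 (+ strand): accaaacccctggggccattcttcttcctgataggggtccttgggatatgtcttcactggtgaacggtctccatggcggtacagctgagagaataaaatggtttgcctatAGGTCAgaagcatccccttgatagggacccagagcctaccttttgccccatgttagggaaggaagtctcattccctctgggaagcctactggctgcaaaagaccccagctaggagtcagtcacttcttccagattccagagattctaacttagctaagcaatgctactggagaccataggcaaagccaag
NR1D2, chr3:23945871-23946170 (+ strand): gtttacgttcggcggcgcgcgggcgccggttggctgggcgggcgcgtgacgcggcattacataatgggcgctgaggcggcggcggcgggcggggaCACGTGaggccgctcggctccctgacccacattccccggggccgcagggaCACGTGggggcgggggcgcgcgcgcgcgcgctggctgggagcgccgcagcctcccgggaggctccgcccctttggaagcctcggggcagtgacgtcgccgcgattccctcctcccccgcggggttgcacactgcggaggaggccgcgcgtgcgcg
NR5A2 held 1 hexamer, on its printed strand and starting 84 bases before the gene start, and NR1H3 held 1, starting 140 bases before it. NR1D2 held 2 E-boxes, starting 155 and 105 bases before the start. The NR2F1 window held no hexamer. Other annotated starts of these genes lacked the same motif: the hexamer was absent from the other NR5A2 window, from the other 3 NR1H3 windows and from both NR2F1 windows, and the E-box from the other NR1D2 window. Windows were available for 40 of the 45 receptor genes, 93 windows in all.

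Searched on both strands, the hexamer AGGTCA was found in 16 of these 93 windows (17.2%) and in 13.8% of all 35116 windows of the same length. The E-box CACGTG, which reads the same on both strands, was found in 7 of 93 (7.53%) against 7.26% of all windows, and the cAMP response element TGACGTCA in 2 of 93 (2.15%) against 1.85%. Such matches describe letters in a short window and do not show binding.

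NR2F1 stood at −0.26 on the vehicle array, −0.32 with estradiol and 1.26 with ERα17p, by its 1 probe set. The vehicle and estradiol arrays lay close together, and the peptide array alone was high. The difference of ERα17p from estradiol was 1.58, second among 19775 genes (rank 2 from the highest), and from vehicle it was 1.52 (rank 73), whereas estradiol differed from vehicle by −0.06. NR2F1-AS1, a long noncoding RNA that RefSeq places on the opposite strand and overlapping NR2F1, was read by 3 other probe sets and was looked up after the NR2F1 value was seen. Its probe sets stood at −0.30, −0.33 and −0.21 on the vehicle array, 0.00, −0.02 and −0.15 on the estradiol array and 0.47, 0.43 and 0.36 on the ERα17p array. All 3 were thus highest with the peptide. Its difference between ERα17p and estradiol was 0.47 ± 0.03 (SD, n = 3), and from vehicle it was 0.70 ± 0.11 with ERα17p and 0.22 ± 0.14 with estradiol. Among the other antisense transcripts named after a listed receptor, NR2F2-AS1 differed between ERα17p and estradiol by 0.27, and RARA-AS1, RARB-AS1, RORA-AS1 and HNF4A-AS1 lay between −0.12 and 0.00.

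NR5A2 was read by 4 probe sets, whose mean was −0.31 on the vehicle array, 0.52 with estradiol and −0.39 with ERα17p. The estradiol array was the high one, and vehicle and peptide were alike. By probe set, estradiol differed from vehicle by 1.70, 0.96, 0.42 and 0.23, all above 0, with a mean of 0.83 ± 0.66 (SD, n = 4). The names of the first 2 of these end in _s_at, a kind left out as a check. Without them the mean was 0.32, below 1.5-fold. ERα17p differed from vehicle by 0.47, −0.13, −0.85 and 0.17, with a mean of −0.09 ± 0.57, so its probe sets lay on both sides of 0. ERα17p lay below estradiol in all 4, with a mean difference of −0.91 ± 0.58 and rank 25 from the lowest of 19775 genes. Without those 2 probe sets the mean difference was −0.67. The 2 probe sets left were at −1.28 and −0.06, so that value rests on the first of them. NR5A1, the other member of this subfamily and the steroidogenic factor of adrenal and gonad, stood at −0.24, −0.29 and 0.00 in the order vehicle, estradiol, ERα17p.

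**Figure D1:**
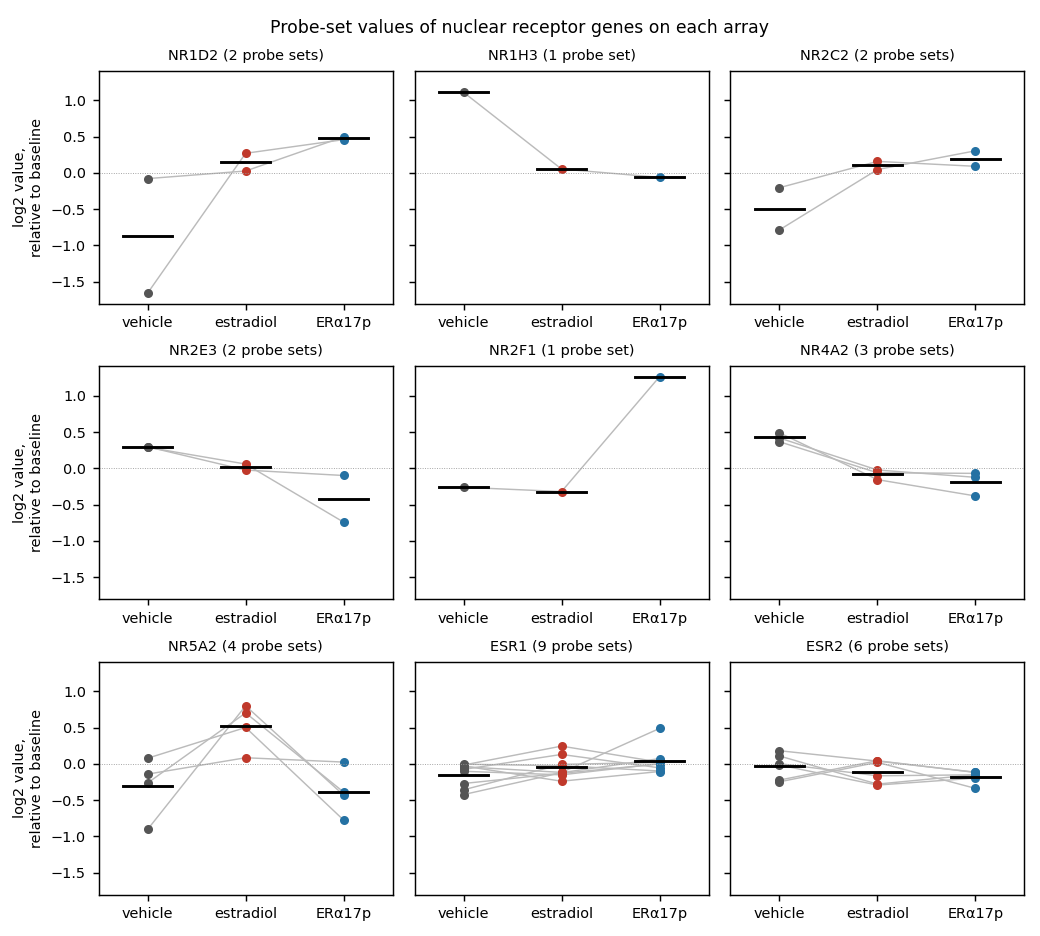
Values of 9 receptor genes on the vehicle, estradiol and ERα17p arrays (vertical axis, log2 value relative to the baseline of the probe set; each point is 1 probe set, grey lines join a probe set across arrays, and black bars are means over probe sets). NR2F1 is high on the ERα17p array alone at 1.26, NR5A2 is highest on the estradiol array at a mean of 0.52, and over the 3 arrays the probe sets of ESR1 lie between −0.42 and 0.49 and those of ESR2 between −0.34 and 0.18.

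Next to these in size, 4 further receptor genes differed between peptide and hormone by less than 1.5-fold but by more than the rest. NR0B2 encodes SHP, which lacks a DNA-binding domain and represses other receptors. It stood at −0.11, −0.45 and 0.11 in that order, so that estradiol was the low array, and ERα17p was 0.56 above it by 1 probe set. NR3C2, the mineralocorticoid receptor, stood at −0.18, −0.01 and 0.40, with the peptide array high and 0.41 above estradiol. NR2E3, a receptor of photoreceptor cells, differed by −0.44 ± 0.51 (SD, n = 2). RARA, which encodes retinoic acid receptor α, differed by −0.38 ± 0.59 (SD, n = 5), with 4 of its probe sets below 0 and 1 above. The remaining receptor genes lay between −0.11 and 0.33.

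Over all 38 receptor genes the median difference of ERα17p from estradiol was 0.03, against 0.01 over all genes, and 26 of 38 (68.4%) lay above 0 against 51.6% of all genes. Most of these differences were small. The median absolute difference was 0.08 for the receptor genes and 0.11 for all genes.

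**Figure D2:**
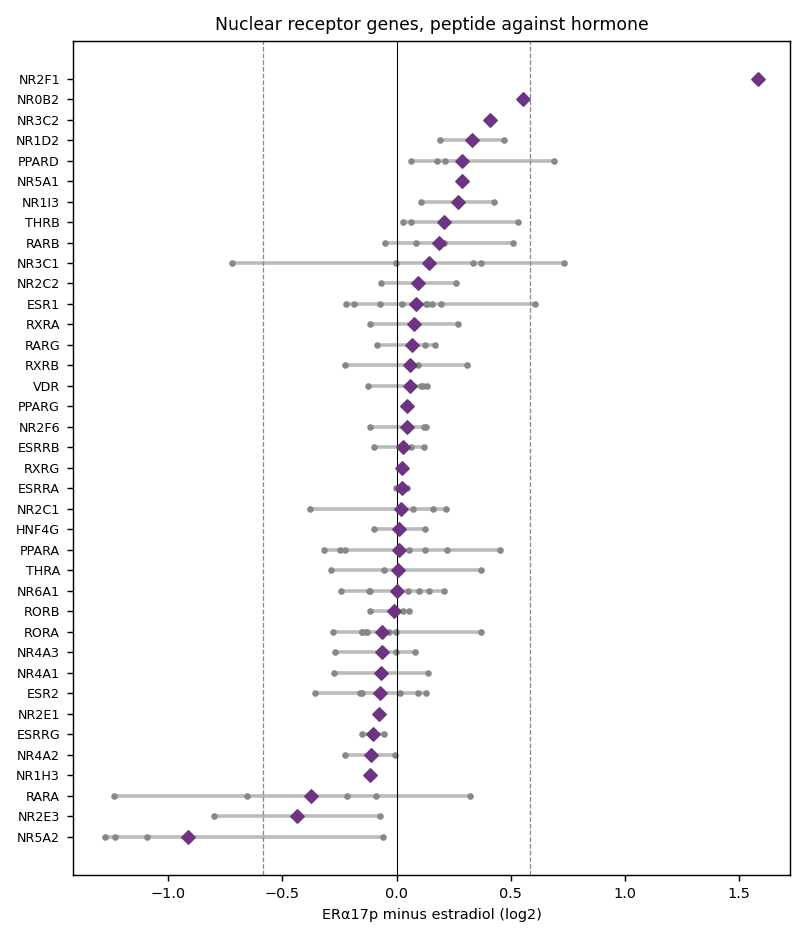
Difference between the ERα17p and estradiol arrays for the 38 receptor genes (horizontal axis, log2; diamonds are means over probe sets, grey points single probe sets, grey bars their range, dashed lines 1.5-fold). NR2F1 at 1.58 and NR5A2 at −0.91 are the genes beyond the dashed lines, and many genes have probe sets on both sides of 0.

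The gene means of the estrogen receptors themselves differed little between the arrays, while single probe sets spread more widely. ESR1, which encodes the receptor that binds estradiol and from which the peptide is copied, had a mean of −0.15 with vehicle, −0.05 with estradiol and 0.04 with ERα17p. Its difference from vehicle was 0.10 ± 0.20 (SD, n = 9) with estradiol, where 5 of the 9 probe sets lay above 0, and 0.19 ± 0.24 with ERα17p, where 7 did. Both differences were below the SD over its probe sets. ESR2, which encodes estrogen receptor β, had means of −0.03, −0.11 and −0.18 and differed from vehicle by −0.07 ± 0.28 (SD, n = 6) and −0.15 ± 0.14. Among the estrogen-related receptors, orphan relatives that control mitochondrial and energy genes, ESRRA was 0.35 ± 0.25 (SD, n = 2) below vehicle with estradiol and differed by −0.33 ± 0.22 with ERα17p. ESRRB and ESRRG lay between 0.09 and 0.19 above vehicle on both treated arrays.

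Against the vehicle array, NR1D2, NR2C2 and NR5A2 were at least 1.5-fold higher with estradiol, and NR1H3 was at least 1.5-fold lower. That is 3 of 38 receptor genes higher and 1 lower, while 6.48% of all genes were higher and 8.42% lower by as much. With ERα17p, NR1D2, NR2C2 and NR2F1 were at least 1.5-fold higher and NR1H3, NR2E3 and NR4A2 at least 1.5-fold lower, or 3 of 38 in each direction, while 6.88% of all genes were higher and 8.76% lower. By 2-fold or more, 1 receptor gene was higher with estradiol (NR1D2; 1.57% of all genes) and 1 lower (NR1H3; 1.63%), and with ERα17p 2 were higher (NR1D2 and NR2F1; 1.9%) and 1 lower (NR1H3; 1.87%). At 1.5-fold the receptor shares were 7.89% higher and 2.63% lower with estradiol, and 7.89% in each direction with ERα17p, so the number of receptor genes past the threshold did not exceed the background by more than 1 gene in any direction. Both comparisons use the same vehicle array, so values that recur in them are not independent.

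The median difference of the 38 receptor genes from vehicle was −0.06 with estradiol and −0.02 with ERα17p, against 0.00 over all genes in each. With estradiol 27 of 38 receptor genes (71.1%) lay below vehicle, against 50.6% of all genes. With ERα17p 19 (50%) did, against 49.9% of all genes. The median absolute difference was 0.16 and 0.19 for the receptor genes and 0.22 for all genes in each comparison. For ERα17p the sign of the median was not stable, since it was 0.02 when the probe sets of a gene were summarised by their median. It was 0.10 over the 31 genes left without probe sets ending in _s_at or _x_at.

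**Figure D3:**
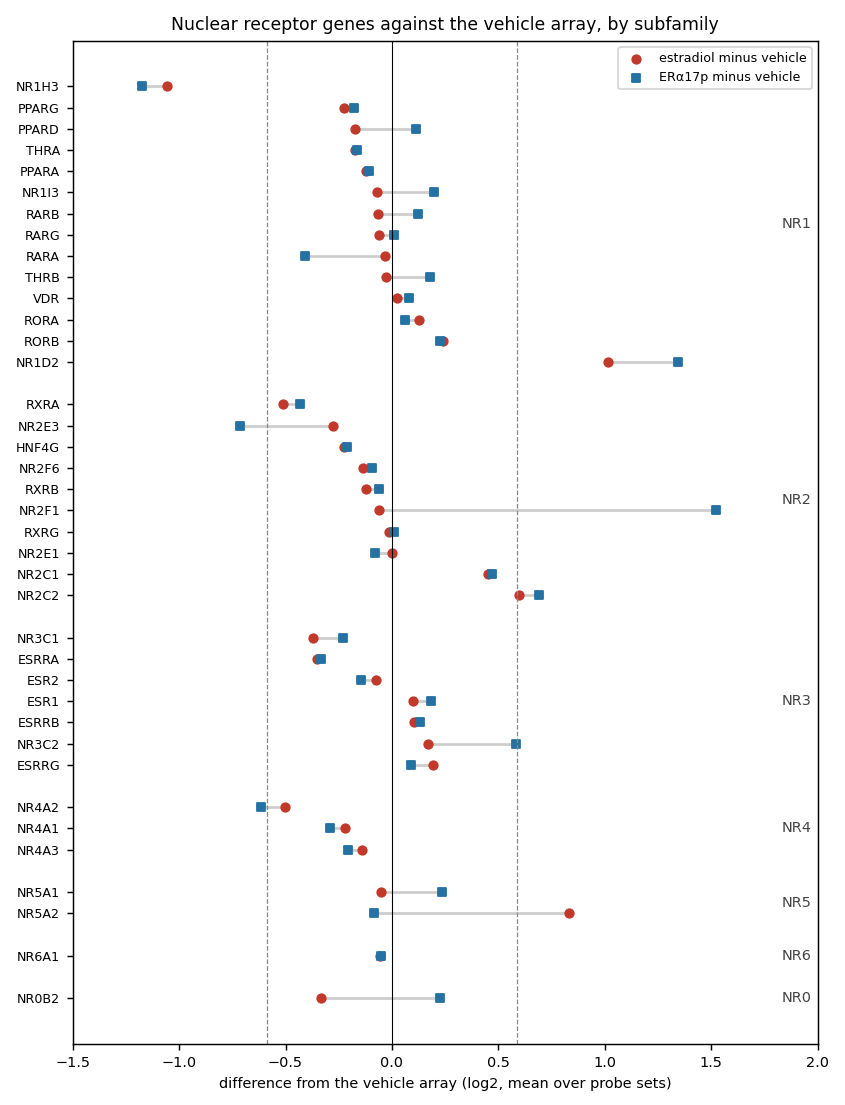
Difference from the vehicle array of the 38 receptor genes, ordered within subfamily (horizontal axis, log2 mean over probe sets; circles estradiol, squares ERα17p, grey bars join the 2 values of a gene, dashed lines 1.5-fold). NR1D2, NR2C2 and NR1H3 lie beyond the dashed lines in both comparisons, whereas NR2F1 does so with ERα17p and NR5A2 with estradiol.

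In the NR1 subfamily, which holds the receptors for thyroid hormone, retinoic acid, vitamin D and lipids, the 14 measured genes had a median of −0.06 with estradiol and 0.07 with ERα17p. NR1D2 encodes REV-ERBβ, a heme-binding repressor of the circadian clock. Its 2 probe sets stood at −1.66 and −0.08 on the vehicle array, 0.27 and 0.02 on the estradiol array and 0.46 and 0.50 on the ERα17p array. Vehicle was the low array in both probe sets, by very different amounts. The difference from vehicle was 1.02 ± 1.29 (SD, n = 2) with estradiol and 1.34 ± 1.09 with ERα17p, which ranked 289 and 123 from the highest of all genes. The difference with estradiol was smaller than its SD. RORA and RORB, the activators that compete with REV-ERB proteins for the same sites, were within 0.06 to 0.24 above vehicle.

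NR1H3 encodes liver X receptor α, a sensor of oxysterols that turns on cholesterol export. It stood at 1.11 on the vehicle array, 0.05 with estradiol and −0.06 with ERα17p, by 1 probe set. The vehicle array alone was high, and the treated arrays differed from it by −1.06 and −1.17. Ranks from the lowest of all genes were 243 with estradiol and 181 with ERα17p.

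The 3 retinoic acid receptors lay between −0.07 and −0.03 with estradiol. With ERα17p, RARB and RARG lay at 0.12 and 0.01 and RARA at −0.41 ± 0.57 (SD, n = 5). The RARA probe sets differed from vehicle by −1.06, −0.72, −0.54, −0.15 and 0.42, so a lower RARA transcript was seen in 4 of 5. Without the 4 whose names end in _s_at or _x_at, the value was that of the 1 probe set at 0.42. The 3 PPARs, receptors for fatty acids, lay between −0.23 and 0.11 in both comparisons, THRA, THRB and NR1I3 between −0.17 and 0.20, and VDR, the vitamin D receptor, at 0.02 ± 0.35 (SD, n = 4) and 0.08 ± 0.25.

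In the NR2 subfamily, which holds the retinoid X receptors and several orphans, the testicular receptor genes NR2C1 and NR2C2 were both higher on the treated arrays. NR2C2, which encodes TR4, had probe sets at −0.79 and −0.21 on the vehicle array, 0.04 and 0.16 on the estradiol array and 0.30 and 0.09 on the ERα17p array. The vehicle array was the low one in both. The difference was 0.60 ± 0.33 (SD, n = 2) with estradiol and 0.69 ± 0.56 with ERα17p. The names of both probe sets end in _s_at, so leaving out that kind left no value for NR2C2. NR2C1, which encodes TR2, differed by 0.45 ± 0.30 (SD, n = 4) and 0.47 ± 0.45, under 1.5-fold. RXRA, the common partner of many NR1 receptors, stood at 0.38, −0.13 and −0.05 in the order vehicle, estradiol, ERα17p and differed from vehicle by −0.51 ± 0.05 (SD, n = 2) and −0.43 ± 0.32. RXRB and RXRG lay between −0.12 and 0.01.

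NR2E3 had probe sets at 0.29 and 0.30 on the vehicle array, 0.06 and −0.02 on the estradiol array and −0.74 and −0.10 on the ERα17p array. Both were lowest with the peptide, by unequal amounts, and the difference of ERα17p from vehicle was −0.71 ± 0.45 (SD, n = 2). NR2F6, the third COUP-TF gene, differed from vehicle by −0.14 ± 0.31 (SD, n = 3) and −0.09 ± 0.30, so the high NR2F1 value was not shared by it.

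Among the corticosteroid receptors of the NR3 subfamily, the glucocorticoid receptor gene NR3C1 had 5 probe sets that disagreed. Estradiol differed from vehicle by −0.37 ± 0.48 (SD, n = 5) and ERα17p by −0.23 ± 0.86. With ERα17p 4 of the probe sets lay between 0.00 and 0.27 and 1 at −1.76, and with estradiol that same probe set, at −1.05, was also the lowest. NR3C2 differed from vehicle by 0.17 with estradiol and by 0.58 with ERα17p, just under the threshold.

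The NR4A genes are immediate early genes whose proteins act without a known natural ligand. All 3 had a mean below vehicle on both treated arrays. NR4A2 had probe sets at 0.49, 0.42 and 0.37 on the vehicle array, −0.16, −0.02 and −0.06 on the estradiol array and −0.38, −0.12 and −0.07 on the ERα17p array. Vehicle was the high array in each. The difference was −0.50 ± 0.12 (SD, n = 3) with estradiol and −0.62 ± 0.23 with ERα17p, of which the latter passed 1.5-fold. By the median over its probe sets it was −0.54, under 1.5-fold. The names of all 3 probe sets end in _s_at or _x_at, so leaving out those kinds left no value for NR4A2. NR4A1 differed by −0.22 ± 0.32 (SD, n = 3) and −0.29 ± 0.33, and NR4A3 by −0.14 ± 0.25 (SD, n = 3) and −0.21 ± 0.43, all within their SD. NR6A1, a receptor of germ cells, lay at −0.05 in both comparisons.

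Probe sets of the same receptor often disagreed. Of 30 receptor genes with more than 1 probe set, 6 had every probe set above vehicle with estradiol and 5 every one below, which is 36.7% on 1 side against 44.3% over all genes with more than 1. The shares were 36.7% against 45.4% for ERα17p minus vehicle and 26.7% against 37.3% for ERα17p minus estradiol, with a median of 3 probe sets per gene in both sets of genes. The median SD over probe sets was 0.28 for the receptor genes and 0.29 for all genes with estradiol. It was 0.29 and 0.28 with ERα17p, and 0.21 and 0.16 for ERα17p minus estradiol. A gene with more probe sets has less chance to have all on 1 side: of the 8 receptor genes with 2, 7 were on 1 side with estradiol, where 60.4% of all genes with 2 were, and 8 with ERα17p, against 61.2%. Between ERα17p and estradiol 4 of these 8 were on 1 side, against 53.3%. Of the 9 receptor genes with 3 probe sets, 2 were on 1 side with estradiol, against 38.8%, and 3 with ERα17p, against 40.7%. For ERα17p minus estradiol the count was 2 of these 9, against 31.1%. Of the 5 with 4 probe sets, 2 were on 1 side with estradiol, against 26.6%, and 0 with ERα17p, against 25.1%. For ERα17p minus estradiol it was 2 of these 5, against 18.9%.

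**Figure D4:**
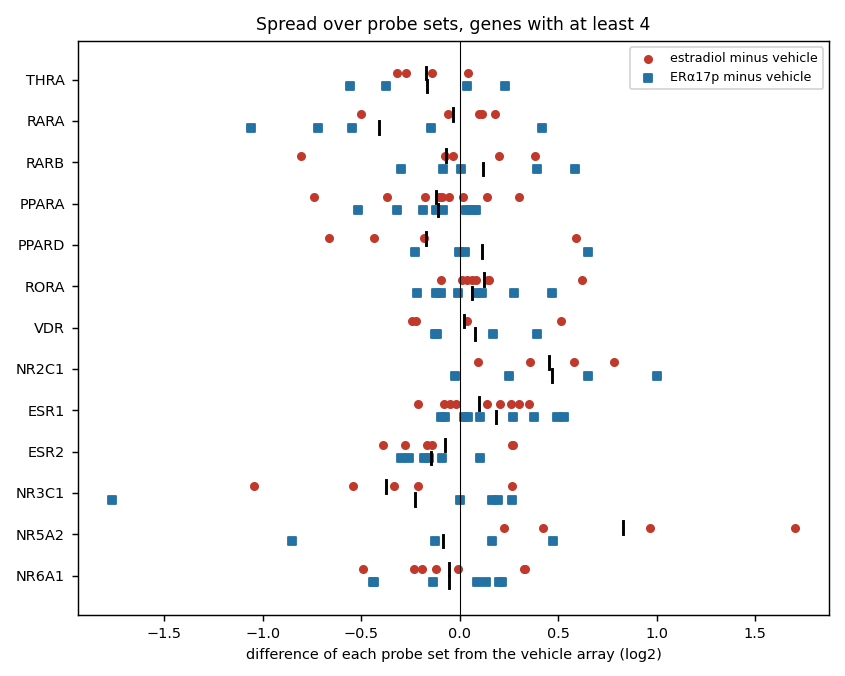
Difference from the vehicle array of every probe set in the 13 receptor genes with at least 4 (horizontal axis, log2; circles estradiol, squares ERα17p, black ticks means). The 4 NR5A2 probe sets all lie above 0 with estradiol, while those of RARA and NR3C1 spread over both sides of 0 with ERα17p.

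The other genes of the pathway were taken from 9 lists of coregulators, receptor targets and genes that make or remove ligands, in which 115 of 125 genes were measured. Between ERα17p and estradiol, 0 of 115 were at least 1.5-fold higher and 3 (2.61%) were lower, against 0.521% higher and 0.607% lower over all genes. The 3 were SGK1, a kinase gene induced by corticosteroids, at −1.63 by 1 probe set, NRIP1, a corepressor that ligand-bound estrogen receptor recruits, at −0.89 ± 0.14 (SD, n = 2), and RET, a receptor tyrosine kinase gene listed under retinoic acid targets, at −0.82 ± 0.41 (SD, n = 3). SGK1 stood at −0.13, 1.35 and −0.28 in the order vehicle, estradiol, ERα17p, NRIP1 at −0.47, 0.52 and −0.37, and RET at −0.14, 0.42 and −0.40. In all 3, as in NR5A2, the estradiol array was the high one. That order is partly set by picking genes that were lower with ERα17p than with estradiol. The lists were chosen with earlier results of these data known. No share of a list past the threshold can therefore be set apart from that choice.

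Against vehicle, 7 of the 115 (6.09%) were at least 1.5-fold higher and 13 (11.3%) lower with estradiol, against 6.48% and 8.42% of all genes. With ERα17p 9 (7.83%) were higher and 13 (11.3%) lower, against 6.88% and 8.76%. Among 14 clock genes BMAL1, which REV-ERB proteins repress, was higher by 1.0 ± 0.14 (SD, n = 2) and 0.82 ± 0.05, and CRY2, a clock repressor, differed by −0.69 and −0.71. CRY1, its relative, was 0.30 above vehicle with estradiol and 0.64 with ERα17p. Of these 14, 1 was higher and 1 lower with estradiol (7.14% in each direction), and 2 and 1 with ERα17p (14.3% and 7.14%). The shares over all genes are those given above.

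Of 9 liver X receptor targets none was at least 1.5-fold higher and 1 (11.1%) was lower with each agent. Of all genes 6.48% were higher and 8.42% lower with estradiol, and 6.88% and 8.76% with ERα17p. With estradiol the lower target was ABCG1, a cholesterol exporter, at −0.68 ± 0.25 (SD, n = 4). With ERα17p it was SREBF1, the lipogenic factor, at −0.64 ± 0.27 (SD, n = 2). ABCA1, the other exporter, lay at 0.10 ± 0.42 (SD, n = 4) and 0.34 ± 0.55. Of 12 PPAR targets ACADVL, an enzyme of fatty acid oxidation, stood at −1.27 and −1.29, and ACSL1, which activates fatty acids, at 0.58 ± 0.66 (SD, n = 2) and 0.85 ± 0.48. Of 10 retinoic acid receptor targets, none was at least 1.5-fold higher and 2 (20%) were lower with each agent. These were PLAAT4, at −0.88 and −1.02, and CRABP2, which carries retinoic acid to the nucleus, at −0.79 and −0.78. In this list 6 of 10 genes lay above vehicle with estradiol and 5 with ERα17p. None of 8 vitamin D receptor targets passed the threshold in any comparison.

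Among 9 targets of the corticosteroid receptors, 1 (11.1%) was at least 1.5-fold higher and 2 (22.2%) lower with estradiol. With ERα17p 0 were higher and 2 (22.2%) lower. SGK1 lay at 1.47 with estradiol and −0.15 with ERα17p. DUSP1 lay at −0.82 ± 0.96 (SD, n = 3) and −0.76 ± 1.08, and NFKBIA at −0.69 ± 0.77 (SD, n = 2) and −0.64 ± 0.66, all within their SD. FKBP5 differed by 0.37 ± 0.40 (SD, n = 3) and 0.37 ± 0.48. Of 21 coregulators 3 were higher and 3 lower with estradiol (14.3% in each direction), and 2 and 3 with ERα17p (9.52% and 14.3%). Over all genes the shares higher and lower were 6.48% and 8.42% with estradiol, and 6.88% and 8.76% with ERα17p. TBL1XR1, a corepressor exchange factor, was higher by 0.66 ± 0.53 (SD, n = 6) and 0.72 ± 0.49, NRIP1 by 1.0 ± 0.80 (SD, n = 2) and 0.11 ± 0.67, and PELP1, an estrogen receptor scaffold, stood at −0.83 and −0.90. Of 21 genes of ligand synthesis and breakdown, CYP27B1, which activates vitamin D, stood at −0.82 and −0.92, and STS, the steroid sulfatase, at 0.68 ± 0.41 (SD, n = 4) and 0.34 ± 0.49. Of 11 genes of the CREB and cAMP pathway, which induces NR4A genes, PRKACB, a catalytic subunit of protein kinase A, was higher by 1.31 ± 0.48 (SD, n = 3) and 1.17 ± 0.39, and SIK1, an inhibitory kinase, stood at −0.60 ± 0.36 (SD, n = 2) and −0.80 ± 0.81.

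**Figure D5:**
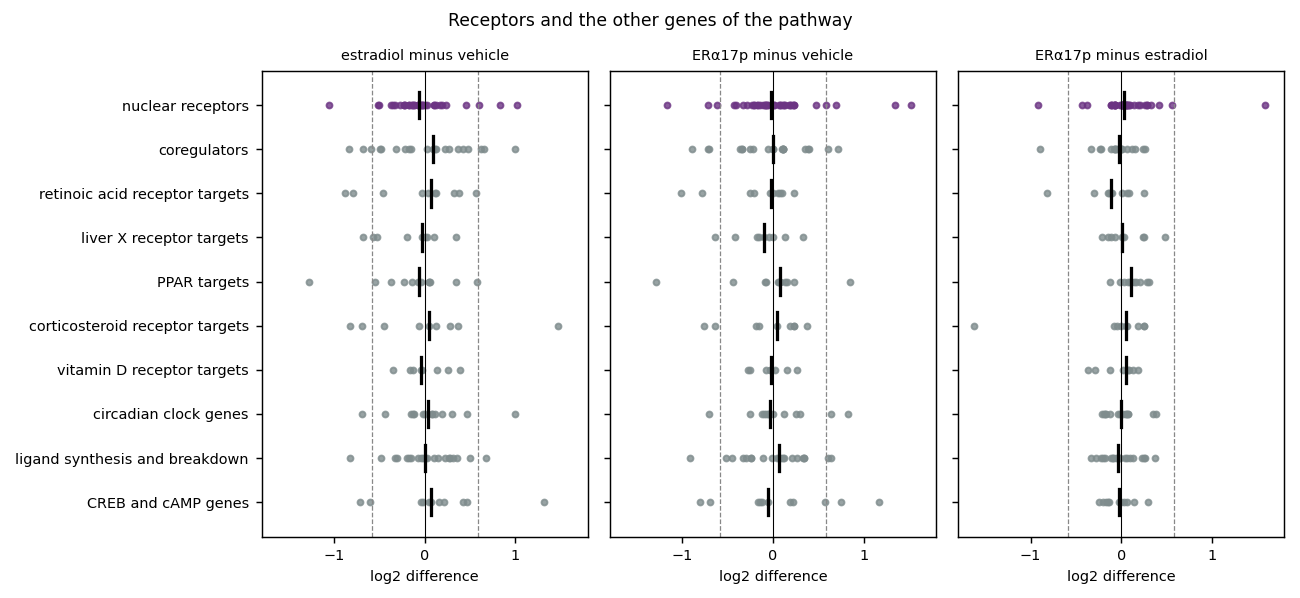
Differences of the 38 receptor genes and of 9 lists of other pathway genes in the 3 comparisons (horizontal axis, log2; each point is 1 gene, black ticks are medians, dashed lines 1.5-fold). Between ERα17p and estradiol, NR2F1 is beyond the upper dashed line, and NR5A2, SGK1, NRIP1 and RET are beyond the lower one.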

How the data were processed

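Total RNA of T47D cells was measured on 3 Affymetrix HG-U133 Plus 2 arrays, 1 for each group, assigned from its label. The deposited log2 values are RMA output according to the submitters' processing notes. The sources used here do not state the RMA version, the later centring on a baseline or the base of the logarithm. Precision is limited by the number of arrays, and no signal over background can be given.

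The platform annotation gave 41091 of 54675 probe sets 1 gene, 1801 several and 11721 none, and 62 were controls. Only probe sets with 1 gene were used. Differences were averaged over the probe sets of each gene, and genes were counted at 1.5-fold. With 1 array per group the design has no test. The calculation was tested on simulated data.

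The members and lists were chosen with earlier results of these data known. All receptor genes could be named, with values on every array for those past 1.5-fold in any comparison and for ESR1 and ESR2, and up to 6 genes of each other list per comparison. Outside that rule, values on every array are also given for NR0B2, NR3C2, NR5A1, RXRA, SGK1, NRIP1, RET and NR2F1-AS1. Alternatives were the median of probe sets, no probe sets ending in _s_at or _x_at, centring, 2-fold, agreement of probe sets and counting probe sets. Promoter windows and gene symbols came from RefSeq, build GRCh38.p14. Python 3.11.15, numpy 2.4.6, pandas 2.3.3 and matplotlib 3.10.9 were used.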

Additional observations from a re-analysis of the deposited data

How the results depend on the processing

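At least 2-fold, the receptor genes higher with estradiol numbered 1 instead of 3, those lower with ERα17p 1 instead of 3, and those lower with ERα17p than with estradiol 0 instead of 1, since NR5A2 dropped out. The other pathway genes at least 2-fold different, of 115, numbered 2 higher and 1 lower with estradiol, 1 and 2 with ERα17p, and 1 lower for ERα17p minus estradiol. Of all genes, 1.57% were 2-fold higher and 1.63% lower with estradiol, and 1.9% and 1.87% with ERα17p. For ERα17p minus estradiol 0.086% were lower. Without the probe sets ending in _s_at or _x_at, 31 receptor genes were left, and 1 was higher and 2 were lower with estradiol, and 2 were lower for ERα17p minus estradiol. Of the genes higher with estradiol, NR5A2 fell to 0.32 and NR2C2 had no probe set left. The added lower gene is NR3C1, read there by 1 probe set at −1.05 and −0.72. With ERα17p against vehicle 2 were higher and 3 lower, but not the same genes: NR2C2 and NR4A2 had no probe set left and NR3C1 entered at −1.76. Counted over 125 probe sets, 7 were higher and 6 lower with estradiol, 7 and 10 with ERα17p, and 4 and 7 for ERα17p minus estradiol. No share over all probe sets was calculated, so these counts have no background to be read against. The same holds for the counts among the 31 receptor genes. Centring, the median of probe sets and agreement of probe sets kept each count within 1.5 times, although by the median of probe sets NR4A2, at −0.54, was no longer 1.5-fold lower with ERα17p. Of 321 differences recomputed for single receptor genes, 6 moved by more than the SD over probe sets, all without probe sets ending in _s_at or _x_at. A fixed limit stood in for the SD in genes with 1 probe set. Many of the 321 could not move. The median equals the mean for genes with 1 or 2 probe sets, and centring shifted values by about 0.006 at most. Genes left with no probe set were not counted, so the 6 do not measure how stable the values are.

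No paired analysis was possible because each group had 1 array, so the groups share fewer than 2 replicate numbers. NR2F1 and NR1H3 rest on 1 probe set each, and the number of arrays sets the limit of every value.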
